A study of Mus musculus with 6 samples.

Results

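The MCM genes encode the helicase that opens DNA for replication, together with its relatives and a binding partner. The 10 members were taken by gene symbol and are Mcm2 to Mcm7, Mcm8, Mcm9, Mcm10 and Mcmbp, out of 24318 genes in the table. Mcm2 to Mcm7 are the 6 core helicase subunits, and the other 4 members were set beside them. The family was picked with its values in the siCircGigyf2 and siNC libraries already known, so the differences between these groups are given below as a description that supports nothing.

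The samples were 6 RNA-seq libraries from CAD cells, a mouse catecholaminergic cell line that grows as dividing cells and takes on a neuronal form when serum is withdrawn. In 3 libraries the cells had received an siRNA against circGigyf2, a circular RNA of the Gigyf2 gene (siCircGigyf2), and in 3 a control siRNA (siNC). The groups share the cell line, and the labels give no siRNA dose or time. Expression was deposited in FPKM, a fragment count divided by transcript length and by library size, so levels of different genes can be compared per length.

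MCM2 to MCM7 form a ring of 6 different ATPase subunits, which is loaded on DNA before S phase as an inactive pair of rings and later activated by CDC45 and the GINS complex. MCM10 helps to switch the loaded helicase on. MCM8 and MCM9 are related ATPases that form a separate complex used in homologous recombination, and MCMBP binds MCM subunits away from the origin and favours their assembly and release. Transcription of many MCM genes is driven by E2F factors as cells leave G1, so their RNA is commonly high in dividing cells and low in cells that have stopped dividing.

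Gigyf2, the host gene of the target, had 21.8, 21.1 and 21.3 FPKM in the siCircGigyf2 libraries, against 23.2, 23.1 and 23.2 FPKM in the siNC libraries. It fell by 0.11 on the log2 scale (limma adjusted p = 0.0287), in a row that does not separate linear from circular molecules, so it does not check the knockdown. The labels give a sequencing target but not the depth reached, and single-fragment steps in low values gave the siCircGigyf2 libraries 0.84, 0.91 and 0.80 times the depth of siNC replicate 1, against 0.98 and 0.95 times for siNC replicates 2 and 3. The neuronal markers Tubb3 and Snap25 averaged 177 ± 8.53 and 116 ± 11.02 FPKM in the siCircGigyf2 libraries, against 120.5 ± 4.05 and 109 ± 3.73 FPKM in the siNC libraries (SD, n = 3 each). Th, the enzyme that defines catecholaminergic cells, averaged only 3.28 ± 0.474 FPKM with siCircGigyf2 and 4.24 ± 0.662 FPKM with siNC. The summed FPKM of the 10 neuronal markers was 840 to 855 with siCircGigyf2 and 683 to 689 with siNC. Of the 10, 5 rose and 2 fell (Dbh and Chga), where 38.2% of all genes tested were called in either direction. Snap25 and Th did not pass the limma test (adjusted p = 0.287 and 0.0659). Of the markers of other cell types, Pecam1, Col1a1 and Pdgfra passed the filter on low values. The sum of 6 fibroblast genes was 3.70 to 4.13 FPKM with siCircGigyf2 and 3.40 to 4.10 FPKM with siNC, and that of 5 endothelial genes, nearly all from Pecam1, was 5.95 to 7.19 FPKM with siCircGigyf2 and 5.995 to 6.93 FPKM with siNC. Pecam1 averaged 6.58 ± 0.651 FPKM with siCircGigyf2 and 6.48 ± 0.498 FPKM with siNC and did not pass the test (limma adjusted p = 0.879), and neither did Pdgfra, a fibroblast marker, at 1.83 ± 0.0687 FPKM with siCircGigyf2 and 2.03 ± 0.0996 FPKM with siNC (adjusted p = 0.316). The fibroblast collagen gene Col1a1 rose by 0.36, to 1.47 ± 0.198 FPKM with siCircGigyf2, against 0.924 ± 0.116 FPKM with siNC (adjusted p = 0.0180). Sums were at most 1.19 FPKM in both groups for 5 astrocyte, 6 microglia and 5 oligodendrocyte genes. Of these genes, Col1a2, Col3a1, Lum, Aqp4, Aldh1l1, Gjb6, Itgam, Ptprc, P2ry12 and Mag were listed at 0 in all 6 libraries. The part of the neuronal marker and Col1a1 shifts in the MCM values was not tested.

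Mcm7 had the highest level of the family in siNC cells and the largest difference between the groups. It had 13.9, 14.9 and 13.6 FPKM in the siCircGigyf2 libraries, against 25.5, 30.6 and 27.4 FPKM in the siNC libraries. The groups were far apart, with the highest siCircGigyf2 library below 15 FPKM and the lowest siNC library above 25. The log2(FPKM + 1) difference, siCircGigyf2 minus siNC, was -0.93 (SE 0.064, 95% interval -1.08 to -0.79), and the mean was 49.4% lower. Of 11420 genes with a mean of at least 1 FPKM, 10 fell at least this far, Mcm7 included. In bulk samples such as these, fewer cells that express a gene and less RNA per cell cannot be told apart.

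Mcm6 and Mcm2 stand next in size among the core subunits. Mcm6 had 10.5, 9.50 and 9.76 FPKM in the siCircGigyf2 libraries, against 15.1, 15.1 and 15.9 FPKM in the siNC libraries. Its groups did not overlap, and its log2(FPKM + 1) difference was -0.58 (SE 0.049, 35.3% lower). Mcm2, whose product also binds histones, had 9.30, 10.5 and 9.21 FPKM with siCircGigyf2, against 13.9, 14.6 and 13.4 FPKM with siNC. These groups also stood apart, at a log2 difference of -0.49 (SE 0.059, 30.7% lower).

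Mcm3, Mcm4 and Mcm5 lay close to Mcm2 in the size of their difference. Mcm3 had 11.9, 11.8 and 10.6 FPKM in the siCircGigyf2 libraries, against 14.4, 17.5 and 16.9 FPKM in the siNC libraries. The siNC libraries spread more widely here, at a coefficient of variation of 10.1% against 6.47% with siCircGigyf2, but every siCircGigyf2 library was below every siNC library (log2 difference -0.47, SE 0.074). Mcm4, of the catalytic subunits MCM4, MCM6 and MCM7, had 8.98, 8.64 and 8.72 FPKM with siCircGigyf2, against 12.1, 13.4 and 11.9 FPKM with siNC. It differed by -0.46 (SE 0.053), with tight siCircGigyf2 libraries at a coefficient of variation of 2.02%. Mcm5, whose product sits with MCM2 at the gate through which DNA enters the ring, had 7.51, 6.82 and 6.59 FPKM with siCircGigyf2, against 9.40, 10.1 and 8.77 FPKM with siNC. Its groups did not overlap, and its log2 difference of -0.39 (SE 0.065, 25.9% lower) was the smallest of the core.

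Mcm10 was close to the core subunits in its difference, although it belongs to the other 4 members. It had 3.71, 3.22 and 3.02 FPKM in the siCircGigyf2 libraries, against 5.55, 6.15 and 5.01 FPKM in the siNC libraries. The groups did not overlap, and the log2 difference was -0.61 (SE 0.085, 40.5% lower). The +1 added before taking logs understates the change of a gene at this level, and with 0.1 in its place the difference was -0.73.

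Mcm8 and Mcm9, whose products act as a pair, lay further up the scale of differences. Mcm8 had 5.64, 5.69 and 5.81 FPKM in the siCircGigyf2 libraries, against 7.25, 7.24 and 6.85 FPKM in the siNC libraries. These groups were tight and apart, with a log2 difference of -0.27 (SE 0.050, 19.7% lower). Mcm9 had 4.36, 5.42 and 4.17 FPKM with siCircGigyf2, against 4.87, 5.28 and 5.56 FPKM with siNC. Its groups overlapped through siCircGigyf2 replicate 2, its log2 difference was -0.15 (SE 0.088, 95% interval -0.35 to 0.053), and it did not pass the limma test. Without that library the difference was -0.24 and Mcm9 passed, whereas without siCircGigyf2 replicate 3 it was -0.087 (limma adjusted p = 0.502).

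Mcmbp, the MCM-binding protein gene, had 17.8, 18.1 and 17.6 FPKM in the siCircGigyf2 libraries, against 18.8, 19.1 and 18.7 FPKM in the siNC libraries. The libraries did not overlap, because both groups were tight at coefficients of variation of 1.42% and 1.06%, but the difference was small. It was -0.08 on the log2 scale (SE 0.035, 95% interval -0.16 to 0.00054, 5.56% lower), and Mcmbp did not pass the limma test.

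**Figure D1:**
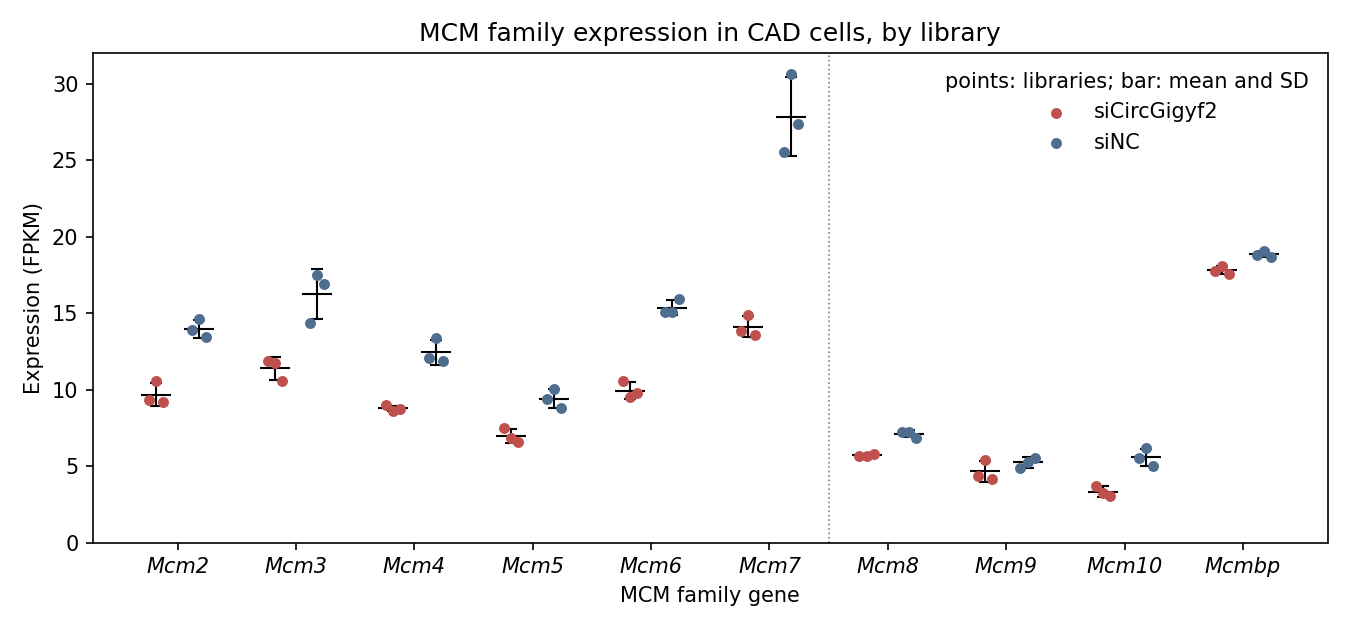
Expression in FPKM of each MCM family gene, with 1 point per library, siCircGigyf2 left of siNC, and bars for the mean and SD of 3 libraries. The siCircGigyf2 libraries lie below the siNC libraries for 9 of 10 genes, with the widest gap at Mcm7 (14.1 against 27.9 FPKM on average) and an overlap at Mcm9.

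All 10 members passed the filter on low values. In the limma fit over all 11420 genes, 8 of 10 members were called lower and 0 higher at an adjusted p under 0.05, where 18.7% of all genes tested were called lower. These 8 were all 6 core subunits, Mcm8 and Mcm10. The siCircGigyf2 libraries lay below all siNC libraries for 9 of 10 members, a pattern found for 25.3% of all genes tested. Nothing is read from either count, since the family was chosen on this contrast. Each tested member kept its direction in all 14 alternative settings, scalings included.

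**Figure D2:**
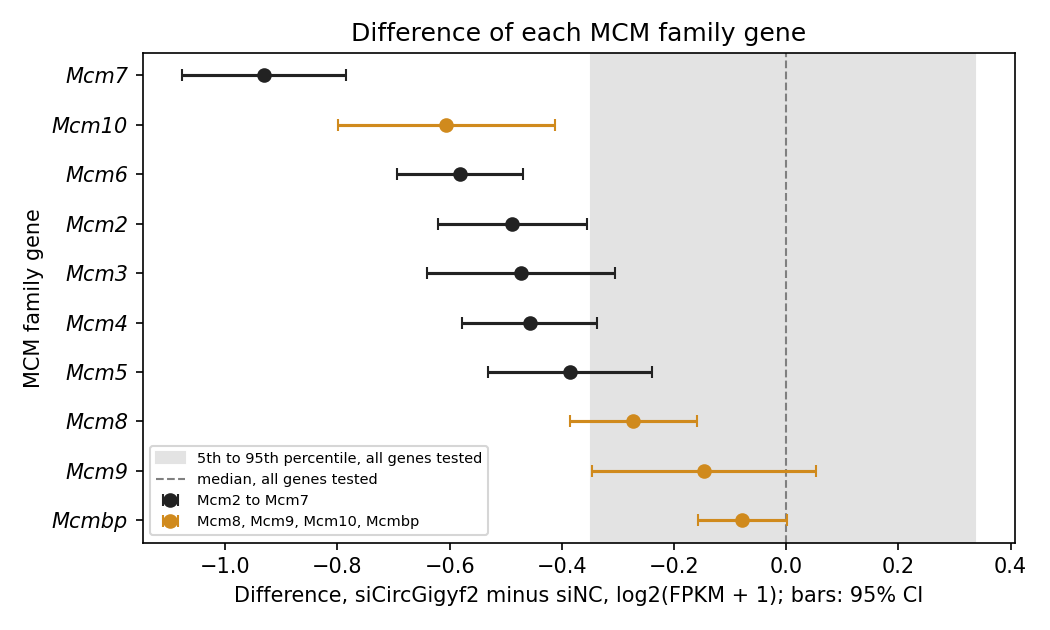
Difference on the log2(FPKM + 1) scale, siCircGigyf2 minus siNC, for each member, ordered by size, with 95% intervals from the limma fit. The grey band spans the 5th to 95th percentile of all genes tested (-0.35 to 0.34), and the 6 core subunits and Mcm10 lie left of it while Mcm8, Mcm9 and Mcmbp lie within it.

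The core subunits had a median log2 difference of -0.48 and the other 4 members one of -0.21, beside 0.00035 for all genes tested. Leaving Mcm7 out changed the core median to -0.47. The mean log2(FPKM + 1) of the core minus that of the other 4 was 0.58, 0.53 and 0.56 in the siCircGigyf2 libraries, against 0.79, 0.86 and 0.84 in the siNC libraries. The core stood less far above the other members in each siCircGigyf2 library, with a mean difference of -0.28. The 4 are not alike, since Mcm10 lay within the core range of -0.93 to -0.39 and Mcmbp close to 0. With a filter at a mean of 5 FPKM, which removes Mcm9 and Mcm10, the difference was -0.38 in place of -0.28.

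The balance among the 6 core mRNAs was also described, since their products are used in equal numbers in the ring. Their summed FPKM was 62.1, 62.1 and 58.4 in the siCircGigyf2 libraries, against 90.4, 101 and 94.2 in the siNC libraries, a mean change of -36.1%. Mcm7 held 22.3%, 23.9% and 23.3% of this sum with siCircGigyf2, against 28.3%, 30.3% and 29.1% with siNC. The shares of Mcm3, Mcm4 and Mcm5 were higher in every siCircGigyf2 library than in any siNC library. They averaged 18.7% ± 0.575, 14.4% ± 0.518 and 11.4% ± 0.582 with siCircGigyf2, against 17.0% ± 1.02, 13.1% ± 0.416 and 9.88% ± 0.550 with siNC (SD, n = 3 each). Shares in a library add up to the whole, so a lower Mcm7 share goes with higher shares elsewhere. The FPKM of Mcm3, Mcm4 and Mcm5 themselves fell. The shares of Mcm2 and Mcm6 overlapped between the groups, with Mcm6 at 16.3% ± 0.914 with siCircGigyf2 and 16.2% ± 1.08 with siNC. The ratio of the highest to the lowest core subunit was 1.85, 2.18 and 2.06 with siCircGigyf2, against 2.72, 3.05 and 3.12 with siNC. Among Mcm2 to Mcm6 alone this ratio was 1.64 ± 0.0780 with siCircGigyf2 and 1.75 ± 0.162 with siNC, and there the groups overlapped.

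**Figure D3:**
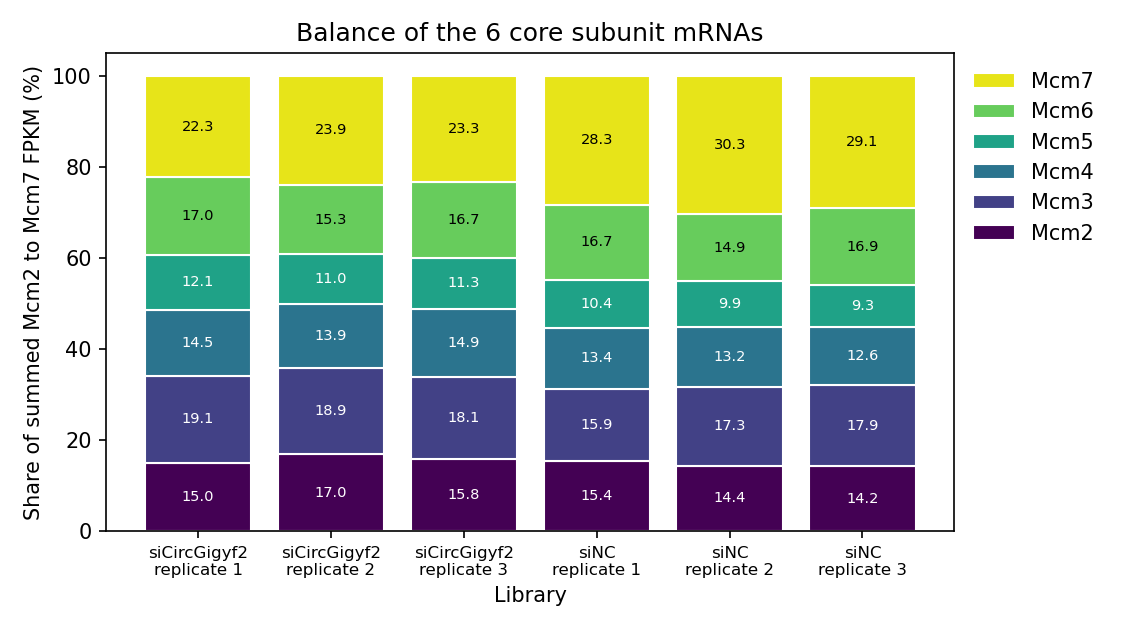
Share in percent of the summed Mcm2 to Mcm7 FPKM held by each subunit, 1 bar per library, with the 3 siCircGigyf2 libraries left of the 3 siNC libraries. Mcm7 takes 22.3% to 23.9% in the siCircGigyf2 bars and 28.3% to 30.3% in the siNC bars.

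The order of the levels, per length in FPKM, was the same in both groups apart from the swaps of Mcm7 with Mcmbp and of Mcm9 with Mcm10. With siCircGigyf2 the order was Mcmbp (17.8), Mcm7 (14.1), Mcm3 (11.4), Mcm6 (9.93), Mcm2 (9.68), Mcm4 (8.78), Mcm5 (6.97), Mcm8 (5.71), Mcm9 (4.65) and Mcm10 (3.31). With siNC it was Mcm7 (27.9), Mcmbp (18.9), Mcm3 (16.2), Mcm6 (15.4), Mcm2 (13.97), Mcm4 (12.4), Mcm5 (9.41), Mcm8 (7.11), Mcm10 (5.57) and Mcm9 (5.24). Neighbours in these orders whose libraries overlapped were Mcm6 and Mcm2 with siCircGigyf2, and Mcm3 and Mcm6 as well as Mcm10 and Mcm9 with siNC. Mcm7 was 0.779, 0.823 and 0.773 times the level of Mcmbp in the siCircGigyf2 libraries, against 1.36, 1.60 and 1.47 times in the siNC libraries.

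Promoter sequences were compared because the core subunits fell together and E2F factors are known to bind MCM promoters. RefSeq windows of 300 bases on build GRCm38.p6, from 250 bases before to 50 after an annotated start, were matched for 9 of 10 members, and none was matched for Mcm4. Other forms such as TTTCCCGC were left out, and the E2F-type motif searched was TTTGGCGC or TTTCGCGC on either strand. It was present for Mcm3, Mcm5, Mcm6, Mcm7 and Mcm8, 5 of 9 members and 4 of 5 core subunits, whereas 0.813% of all 32851 promoter windows and 1.59% of the windows of tested genes held it. Mcm7 has 2 windows, of which the first held it and the second did not. Members are counted here and below by gene, in any window, whereas the shares count windows. The windows of Mcm2, Mcm9, Mcm10 and Mcmbp held neither searched form, and that of Mcm10 ended after the first 7 letters of TTTGGCGC. These matches are shown with 12 bases on either side where the window allows, 5′ to 3′ along the gene, with the matched 8 bases in capitals.
Mcm3, chr1:20820263-20820286, minus strand: aacttgggaagtTTTGGCGCcaag
Mcm5, chr8:75109344-75109375, plus strand: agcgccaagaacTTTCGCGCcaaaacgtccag
Mcm6, upstream match, chr1:128359796-128359827, minus strand: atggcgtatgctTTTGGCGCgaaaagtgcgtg
Mcm6, downstream match, chr1:128359733-128359764, minus strand: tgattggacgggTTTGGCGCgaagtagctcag
Mcm7, chr5:138171848-138171879, minus strand: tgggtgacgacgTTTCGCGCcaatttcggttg
Mcm8, chr2:132816168-132816190, plus strand: cgcgtcatagacGCGCCAAAaaa

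The first base of these matches lay at 39 (Mcm3), -153 (Mcm5), -110 and -47 (Mcm6), 17 (Mcm7) and 40 (Mcm8) bases from the start. In Mcm5 and at the upstream site of Mcm6 a second match on the opposite strand overlapped the printed one by all but 4 bases. The Mcm7 window is printed whole, since Mcm7 had the largest difference, with the E2F-type match and the CCAAT boxes (ATTGG where on the opposite strand) in capitals. The E2F-type match and the last CCAAT box share a base.
Mcm7, chr5:138171834-138172133, minus strand: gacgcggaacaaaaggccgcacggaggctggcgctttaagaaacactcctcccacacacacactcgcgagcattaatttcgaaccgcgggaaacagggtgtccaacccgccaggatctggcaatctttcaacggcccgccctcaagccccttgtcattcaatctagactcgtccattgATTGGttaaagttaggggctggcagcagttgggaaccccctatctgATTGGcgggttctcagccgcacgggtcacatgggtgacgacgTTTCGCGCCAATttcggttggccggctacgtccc

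CCAAT boxes, the letters bound by NF-Y, were found on either strand for 8 of 9 members, all but Mcmbp, against 37.4% of all windows and 38.0% of those of tested genes. Mcm3, Mcm5, Mcm10 and the first of 2 Mcm7 windows held 3 each. The shorter E2F-like motif TTCCCGC was found for Mcm3, Mcm7 and Mcmbp, against 4.6% of all windows and 8.56% of those of tested genes. In Mcmbp, Mcm3 and the first Mcm7 window these letters extend to TTTCCCGC, which the E2F-type search left out. The share of all windows with TTTCCCGC was not counted. The CHR-type motif TTTGAA, an element of promoters active in G2 and M phase, was found for Mcm2 alone, against 17.9% of all windows and 11.3% of those of tested genes. A match is a run of letters, and binding was not measured.

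**Figure D4:**
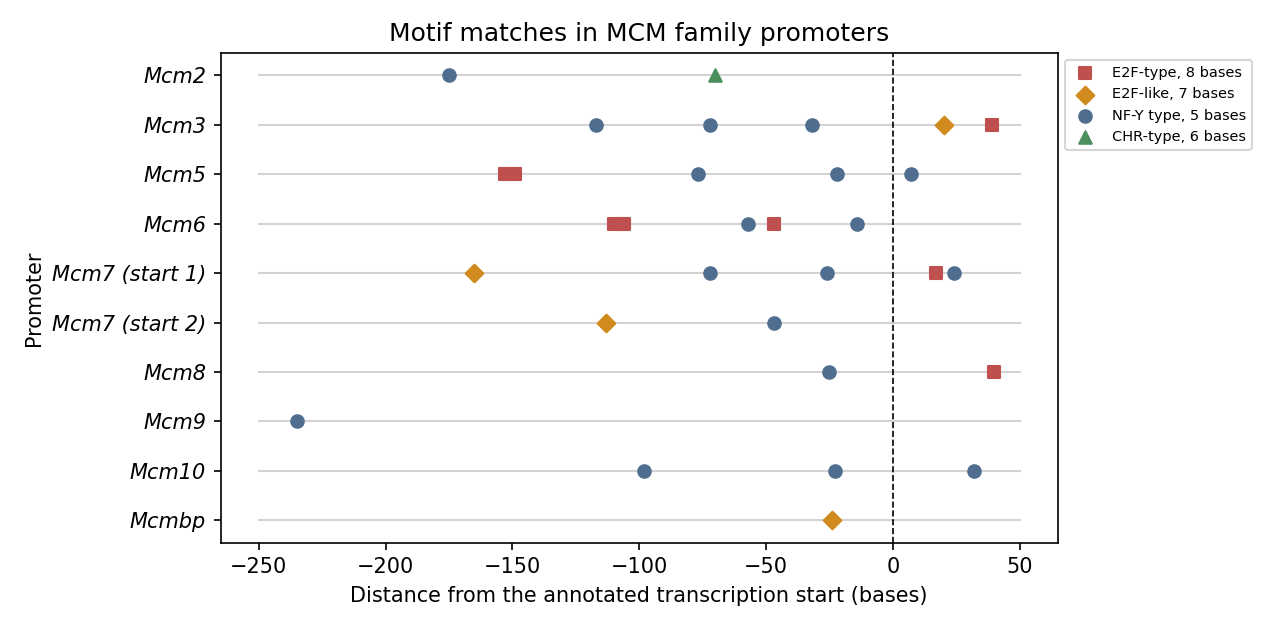
Positions of motif matches in the promoter windows of 9 members, with distance from the annotated start in bases on the x axis and 1 row per window, Mcm7 having 2. E2F-type matches appear for Mcm3, Mcm5, Mcm6, Mcm7 and Mcm8, and CCAAT boxes, marked NF-Y type, in every row but Mcmbp.

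Genes that share a promoter region or locus with a member were compared with it, using GENCODE M21 for their positions. Trmt6, a tRNA methyltransferase subunit, starts 85 bases from Mcm8 on the opposite strand and averaged 25.6 ± 1.12 FPKM with siCircGigyf2 and 26.3 ± 1.98 FPKM with siNC (SD, n = 3 each; limma adjusted p = 0.621). Prkdc, a DNA repair kinase, starts 465 bases from Mcm4 and averaged 3.72 ± 0.0492 FPKM with siCircGigyf2 and 3.84 ± 0.0365 FPKM with siNC (limma adjusted p = 0.644). Ap4m1, an adaptor complex subunit on the opposite strand, overlaps the start of Mcm7 and averaged 7.66 ± 0.257 FPKM with siCircGigyf2 and 7.74 ± 0.737 FPKM with siNC (limma adjusted p = 0.930). None of these 3 passed the test, with log2 differences of -0.04, -0.04 and -0.01. Whether each differed from its MCM neighbour was not tested.

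Cops6, a COP9 signalosome subunit, ends on the last 64 bases of Mcm7 on the opposite strand and rose by 0.19 (90.4 ± 9.001 FPKM with siCircGigyf2, 78.6 ± 0.298 FPKM with siNC, limma adjusted p = 0.0354). Asf1a, a histone chaperone gene inside the Mcm9 locus on the opposite strand, rose by 0.13 (28.4 ± 1.61 FPKM with siCircGigyf2, 25.8 ± 0.455 FPKM with siNC, limma adjusted p = 0.0437). Inpp5f, a phosphatase gene that ends 15 bases from Mcmbp, fell by 0.12 (101 ± 2.76 FPKM with siCircGigyf2, 109.65 ± 1.30 FPKM with siNC, limma adjusted p = 0.0139). These 3 were named after their values were seen. Strand handling was not given, so reads in overlapping stretches of Mcm7 and Mcm9 cannot be assigned with certainty. Mir25, Mir93 and Mir106b, microRNAs in an Mcm7 intron, were listed at 0 in all 6 libraries, which for RNAs this short need not mean absence.

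The 3′ UTRs of the members were searched for GCCTACA, a 7-base sequence that an earlier analysis of these same differences had picked as more common in genes that fell. It was present in 2 of 10 members, Mcm7 and Mcm10, which are also those with the largest differences. Among 10560 tested genes searched, 7.24% held it, with a median log2 difference of -0.10, against 0.0044 for genes without it. Since the sequence and the members were both chosen on these same differences, nothing is read from these values. The part of GCCTACA in the values of Mcm7 and Mcm10 was not tested. The sites are printed from GENCODE M21 on build GRCm38, along the gene, with GCCTACA in capitals.
Mcm7, chr5:138164683-138164703, minus strand: ccctcctGCCTACAccagagg
Mcm10, first site, chr2:4990822-4990842, minus strand: tttctctGCCTACAgtgccat
Mcm10, second site, chr2:4990650-4990670, minus strand: tgggtagGCCTACAggtgtgc

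Of 9 genes that act in or regulate origin licensing, the loading of the helicase, 3 fell and 0 rose, with a median log2 difference of -0.10. Over all genes tested, 18.7% were called lower and 38.2% in either direction. The count of 3 of 9 lay near the share called in either direction and above the share called lower. Cdc6, the loading ATPase, had the largest fall, to 1.54 ± 0.153 FPKM with siCircGigyf2, against 3.12 ± 0.453 FPKM with siNC (log2 difference -0.70, limma adjusted p = 0.000624). The origin recognition subunits Orc5 and Orc2 fell by 0.25 and 0.14 (adjusted p = 0.0226 and 0.0318), and Orc4 had 22.03 ± 0.732 FPKM with siCircGigyf2 and 20.5 ± 0.745 FPKM with siNC without passing (adjusted p = 0.0865). Without siNC replicate 1 or siNC replicate 3, 1 of the 9 was called.

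Of 15 genes for helicase activation, 4 fell and 1 rose (median -0.09), also near the 38.2% called in either direction over all genes tested. Cdc45, which joins the ring in the active helicase, averaged 7.06 ± 0.333 FPKM with siCircGigyf2 and 9.26 ± 0.251 FPKM with siNC (log2 difference -0.35, limma adjusted p = 0.000867). Gins2 and Gins4, subunits of the GINS complex, fell by 0.31 and 0.26 (adjusted p = 0.0145 and 0.0279), with Gins4 named after its value was seen. Ticrr, which brings CDC45 to the origin, fell by 0.29 (adjusted p = 0.0185). Dbf4, the activator of the kinase that phosphorylates MCM subunits, rose by 0.14 (adjusted p = 0.0218), to 26.6 ± 0.453 FPKM with siCircGigyf2, against 24.1 ± 1.02 FPKM with siNC. The calls numbered 3 without siCircGigyf2 replicate 3 or siNC replicate 2.

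Of 28 genes tested for replisome progression, 16 fell and 1 rose (median -0.17), beside 18.7% of all genes tested called lower and 38.2% in either direction. Timeless, of the fork protection complex, fell to 4.54 ± 0.289 FPKM with siCircGigyf2, against 8.58 ± 0.163 FPKM with siNC (log2 difference -0.79, limma adjusted p = 2.95e-05). Pcna, the sliding clamp, Rpa3, a subunit of the single-strand binding complex, and Ssrp1, of the histone chaperone FACT, fell by 0.35, 0.51 and 0.32 (adjusted p from 8.83e-05 to 0.000117). Pole4, a histone-fold subunit of DNA polymerase epsilon, was the gene that rose (0.30, adjusted p = 0.00754). Without siNC replicate 3, 11 of the 28 were called.

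**Figure D5:**
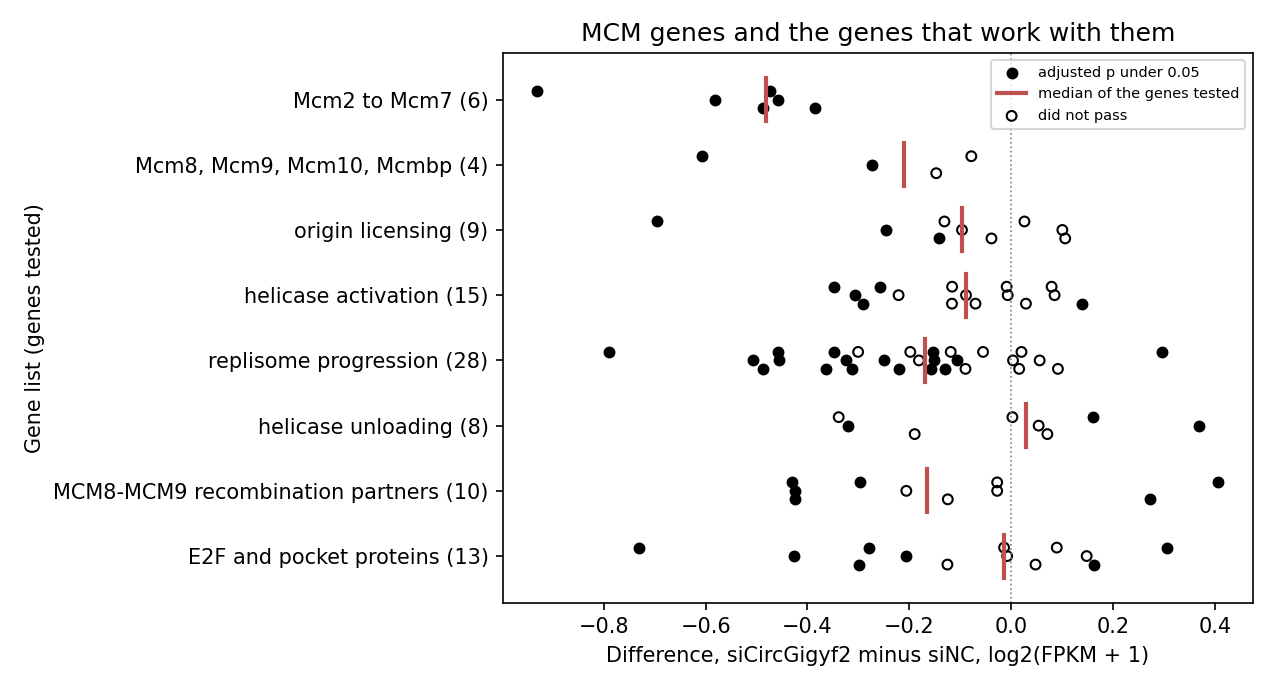
Difference on the log2(FPKM + 1) scale, siCircGigyf2 minus siNC, of the MCM genes and of 6 lists of genes that work with them, 1 point per gene tested, filled where the limma adjusted p was under 0.05, with list medians as red bars. The core MCM genes, of a family chosen on this contrast, have the lowest median (-0.48), and the medians of the 6 lists lie between -0.17 and 0.03. Nothing is read from this order.

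Of 8 helicase unloading genes, 1 fell and 2 rose (median 0.03), which is near the 38.2% called in either direction over all genes tested. Ubxn7, a cofactor of the segregase p97, fell by 0.32 (limma adjusted p = 0.000129), while Cul2, the cullin of the ligase that marks MCM7 for removal, and Faf1, another p97 cofactor, rose by 0.37 and 0.16 (adjusted p = 0.00034 and 0.0177). Lrr1, the substrate receptor of that ligase, averaged 1.41 ± 0.288 FPKM with siCircGigyf2 and 2.05 ± 0.441 FPKM with siNC and did not pass (adjusted p = 0.0606).

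Of 10 recombination genes tested, set beside Mcm8 and Mcm9, 4 fell and 2 rose (median -0.17), where 18.7% of all genes tested were called lower and 38.2% in either direction. Brca1 and Palb2, whose products bind each other at DNA breaks, both fell by 0.43 (limma adjusted p = 0.000439 and 0.0036). Xrcc3 and Nbn rose by 0.41 and 0.27 (adjusted p = 0.000801 and 0.00582).

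Of 13 E2F and pocket protein genes, 5 fell and 2 rose (median -0.01), against 18.7% of all genes tested called lower and 38.2% in either direction. E2f8 and E2f6, which encode repressors, fell by 0.73 and 0.43 (limma adjusted p = 5.53e-05 and 0.000727). The pocket protein gene Rbl2 and the dimer partner gene Tfdp1 fell by 0.30 and 0.21, and Rbl1, named after its value was seen, by 0.28. The activator E2f1 rose to 14.7 ± 0.893 FPKM with siCircGigyf2, against 11.7 ± 0.713 FPKM with siNC (log2 difference 0.31, adjusted p = 0.00334), and Rb1 rose by 0.16 (adjusted p = 0.0107).

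The genes whose profile over the 6 libraries lay nearest to the mean core profile were Mki67, Espl1, Mfsd7b, Tspan14 and Hist2h2bb. Nearness was the Euclidean distance between log2(FPKM + 1) profiles centred on their siNC mean, and it was 0.0663 to 0.0984 for these genes. It was 0.166 to 0.664 for the core subunits themselves and 0.199 for Mcm10. The nearest genes were picked for the smallest distances among tested genes outside the family. With this centring, a small distance largely reflects a similar difference between the groups, on which the family was chosen. The 5 genes nearest to the core had log2 differences of -0.53 to -0.59, beside a core mean of -0.55. The members were not picked by distance, so their distances cannot be set against those of the nearest genes. Mki67, the proliferation marker Ki-67, averaged 29.5 ± 1.68 FPKM with siCircGigyf2 and 43.2 ± 2.65 FPKM with siNC. The 5 nearest to Mcm7 were Hadh, Pigs, Stip1, Ass1 and Ccnb2, at distances of 0.227 to 0.286, of which Hadh, a fatty acid oxidation enzyme gene, averaged 14.1 ± 0.976 FPKM with siCircGigyf2 and 26.0 ± 0.392 FPKM with siNC. Members were not among the candidates.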

How the data were processed

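The authors deposited FPKM per gene symbol for 6 libraries, on build mm9 per the submitters' processing notes. Aligner, quantifier, annotation and strand handling are not given in the sources used here. Libraries were made from rRNA-depleted RNA with the NEBNext Ultra kit, per the labels' protocols. Groups came from the treatment labels and replicate numbers from the titles. No label calls the replicates separate cultures, and the p-values cover the variation among these libraries alone, possibly technical.

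Genes with a mean of at least 1 FPKM entered a two-sided limma test (version 3.58.1, R 4.3.3) of log2(FPKM + 1) between the 2 groups, with trended empirical Bayes variances, and p-values were Benjamini-Hochberg adjusted over all 11420 genes with a threshold of 0.05. The fit was also run on simulated data with independent normal noise for each gene on the log2 scale. That run does not test how FPKM, unequal depth or technical replicates affect the calls. Alternatives were another pseudocount, filters, scalings, the replicate block, no trend, robust empirical Bayes and leaving out each library. Leaving Mcm7 out of a median was added after seeing the data. The members and gene lists were chosen with earlier results of these data known.

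Promoters and 3′ UTRs were read by symbol with Python 3.11.15 from RefSeq (GRCm38.p6) and GENCODE M21 (GRCm38, longest coding transcript), whose build is not that of the table. Named were all members, the microRNAs and neighbours of MCM genes, the 4 list members of smallest p, those against their list's majority and the 5 nearest profiles. Some genes that this rule names are not reported here.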

Additional observations from a re-analysis of the deposited data

How the results depend on the processing

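Of 138 values of single members under 14 alternatives, 0 changed sign and 137 kept their side of the threshold. The exception was Mcm9, which passed without siCircGigyf2 replicate 2 (-0.24, limma adjusted p = 0.0336), while its adjusted p reached 0.502 elsewhere. Mcm7 ranged from -0.99 to -0.86. With a filter of 5 FPKM the core minus the other members differed by -0.38 in place of -0.28. Leaving out each library gave medians of -0.26 to -0.18 for Mcm8, Mcm9, Mcm10 and Mcmbp, and counts of 1 to 3 for origin licensing, 3 to 5 for helicase activation and 11 to 16 for replisome progression. With the replicate block 3973 genes were called in place of 4367, and 8 members as before. The deviations of same-numbered libraries correlated at 0.16, -0.021 and 0.0025, and those of differently numbered libraries at -0.12 to 0.13. The numbers were therefore not taken as pairs. FPKM show neither fragment numbers nor total RNA per cell.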

Other observations

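In a list of 6 genes drawn up as neighbours of MCM genes, 2 fell and 0 rose (median log2 difference -0.08). Over all genes tested, 18.7% were called lower and 38.2% in either direction. Taf6, Cnpy4 and Asf1b, 3 of the 6, do not lie within 1 kb of a member in GENCODE M21. Both genes that fell, Cnpy4 and Asf1b, are among these. Taf6 averaged 12.5 ± 0.504 FPKM with siCircGigyf2 and 13.7 ± 0.495 FPKM with siNC and did not pass (SD, n = 3 each; limma adjusted p = 0.0546). Cnpy4 fell by 0.19 (limma adjusted p = 0.0423). Asf1b, a histone chaperone that works at the replication fork, fell to 6.66 ± 0.347 FPKM with siCircGigyf2, against 11.3 ± 1.498 FPKM with siNC (log2 difference -0.68, limma adjusted p = 0.000342).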
